A study of Homo sapiens with 4 samples.

Results

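Circular RNAs from the F-box protein genes were examined in radiation-resistant MDA-MB-468 cells, with and without knockdown of HNRNPL. The circles were taken from a table with 1 row per back-splice position, which is the point where the end of an exon is joined to the start of an upstream exon. A row was a member where it was not of the antisense type and where its gene field held a symbol made of FBXL, FBXO or FBXW and a number. This rule found 541 of 211599 rows, from 38 host genes, and 463 of these rows had at least 1 count. Of the 541 rows, 18 also named another gene. Another 103 rows that lie antisense over F-box genes were left out by the rule. Counts were summed per host gene over its circles.

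F-box proteins are the substrate-binding subunits of the SCF ubiquitin ligases, which are built from SKP1, the scaffold CUL1, the RING protein RBX1 and 1 F-box protein. The F-box motif contacts SKP1, and a second domain holds the substrate that is to be ubiquitinated. That domain is made of leucine-rich repeats in the FBXL proteins, of WD repeats in the FBXW proteins and of other folds in the FBXO proteins. Circular RNAs from such genes are made when a downstream splice donor joins an upstream splice acceptor. They compete with linear splicing of the same transcript, so a circle count is not a measure of the gene's mRNA. HNRNPL is an RNA-binding protein that regulates splicing.

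MDA-MB-468 is an established line from a human breast cancer. All 4 libraries, controls included, were from cells made resistant with a total dose of 50 Gy in 6 to 8 weeks. A control hairpin (shCtrl) was carried by 2 biological replicates, and a stable hairpin against HNRNPL (shHNRNPL) by the other 2. A single hairpin was used, and no parental cells without radiation are among these groups. Per the labels, cDNA was made from total RNA with Induro reverse transcriptase, amplified by phi29 polymerase and read on a nanopore instrument. The comparison asks which circles differ in level between cells with the hairpin against HNRNPL and cells with the control hairpin. Circular reads of HNRNPL itself were not analysed here, so the knockdown rests on the labels.

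The control libraries held 472428 and 556578 counts (replicates 1 and 2) and the knockdown libraries 282737 and 390547. Levels below are counts per 100000 of the library total. A count of 0 allows up to 3 counts in a library, which is between 0.539 and 1.06 per 100000. Amplified copies carry no molecular identifiers, so such floors and the intervals below cover counting error only. The control pair was more spread than the knockdown pair. Pearson's r of log2 levels (with 0.5 per 100000 added) over 4944 circles was 0.715 in the control pair against 0.916 in the knockdown pair, a description across circles that share a library and its depth. Control replicate 1 also held 19.7% of its counts in intron-type circles, against 9.93% to 10.6% in the other libraries. The part of that difference in the results below was not tested beyond fits to exon-type circles only and fits without that library. As a check of the cell line, 4 of 6 epithelial and MDA-MB-468 markers had circular counts: EGFR (12 to 115 per library), EPCAM, CDH1 and KRT5, while KRT8 and KRT18 had 0. Of the genes lost in this line, RB1 had 0 counts and SMAD4 had 2. All 9 fibroblast, blood and endothelial markers looked up had 0 counts. A gene whose transcript forms no circles shows nothing here.

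FBXL13 was the one F-box host gene that passed the test. It encodes a leucine-rich repeat F-box protein that has been linked to the turnover of a centrosomal protein. The gene lies on the minus strand of chromosome 7, from 102811189 to 103074796 (GRCh38.p14). The control libraries gave 5 and 11 counts of its circles (replicates 1 and 2), and the knockdown libraries 52 and 81. As levels these are 1.06 and 1.98 per 100000 in the controls and 18.4 and 20.7 per 100000 in the knockdowns. Both knockdown libraries lay far above both controls. In bulk RNA, more cells with a circle and more copies per cell cannot be told apart.

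By group, circular FBXL13 rose from 1.52 ± 0.649 to 19.6 ± 1.66 per 100000 (SD, n = 2), which is 12.9-fold by the means. edgeR's quasi-likelihood test gave a log2 fold change of 3.94 ± 0.49 (SE; adjusted p = 0.0388 over 8379 host genes). In that fit 37 host genes passed an adjusted p of 0.05, or 0.442%, and all 37 were higher after knockdown. FBXL13 was at percentile 99.6 of all fitted log2 fold changes. Its call was lost with edgeR's newer dispersion method (adjusted p = 0.0874) and when either knockdown library was left out. In those edgeR fits the log2 fold change was 4.05 without knockdown replicate 1 (adjusted p = 0.919) and 3.81 without knockdown replicate 2 (adjusted p = 0.911). Without control replicate 2 it was 4.73, against 3.46 without control replicate 1. With exon-type circles only, it was 3.92 (adjusted p = 0.0223 in edgeR). Over 14 alternatives in edgeR, DESeq2 or limma its adjusted p ranged from 3.24e-25 to 0.919.

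Most FBXL13 counts after knockdown came from 3 circles that share a core. Of 14 FBXL13 circles with counts, these 3 held 120 of 149 counts (80.5%). Together they had 1 and 6 counts in the controls against 44 and 69 in the knockdowns, while the other 11 circles had 4 and 5 counts in the controls against 8 and 12 in the knockdowns. Per 100000 the other circles together had 0.847 and 0.898 in the controls against 2.83 and 3.07 in the knockdowns, so they were higher as well. In the first isoform listed for each, the 3 circles all contain the same 4 exons. These are of 68, 149, 110 and 168 nt in the order of transcription and 495 nt in all. The 3 circles are exon-type with the splice motif AG-GT exactly at the junction.

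The most abundant FBXL13 circle (chromosome 7, 103025063 to 103047020, 707 nt, 5 exons) joins the core to a 212 nt exon that lies upstream of it. It had 0 and 6 counts in the controls against 20 and 29 in the knockdowns, or 0 and 1.08 against 7.07 and 7.43 per 100000. Fitted over all circles, the log2 fold change was 3.62 ± 0.89 (SE; adjusted p = 0.175 in edgeR). With control replicate 1 left out it was 2.93, and with control replicate 2 left out the remaining control has 0 counts, so that fitted value is no bound. Over 13 alternatives in edgeR, DESeq2 or limma its adjusted p ranged from 9.47e-08 to 0.699. The table lists the letters CAGGT as shared by both ends of its junction, and only AG for the next circle.

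The next circle (chromosome 7, 103025063 to 103029418, 495 nt) is the 4-exon core alone, and the table lists 3 internal isoforms for it. It had 0 counts in both controls and 19 and 27 counts in the knockdowns, or 6.72 and 6.91 per 100000. Against the floor of 3 counts per control library it was at least 11.6-fold higher. Its adjusted p in edgeR was 0.0949, the smallest of the F-box circles. It passed with exon-type circles only (adjusted p = 0.0335 in edgeR), and over 13 alternatives in edgeR, DESeq2 or limma its adjusted p ranged from 1.28e-10 to 0.695.

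The third circle (chromosome 7, 102963533 to 103029418, 724 nt, 6 exons) extends the core downstream by exons of 96 and 133 nt. It had 1 and 0 counts in the controls against 5 and 13 in the knockdowns. From pooled counts the ratio was 27.5, with an exact 95% counting interval of 4.34 to 1146. The log2 fold change was 4.27 ± 1.24 (SE; adjusted p = 0.232 in edgeR). A longer circle from the same acceptor (chromosome 7, 102913086 to 103029418, 1008 nt, 9 exons) had 3 counts in each control and 1 and 2 in the knockdowns, so the longer form was not among those with more counts after knockdown. Of the 14 circles, 8 had counts in the knockdowns alone and 1 in a control alone. The 11 circles outside the leading 3 had 4 and 5 counts in all in the controls against 8 and 12 in the knockdowns. At such counts a 0 in a group says little, and the share of such circles over all genes was not computed.

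**Figure D1:**
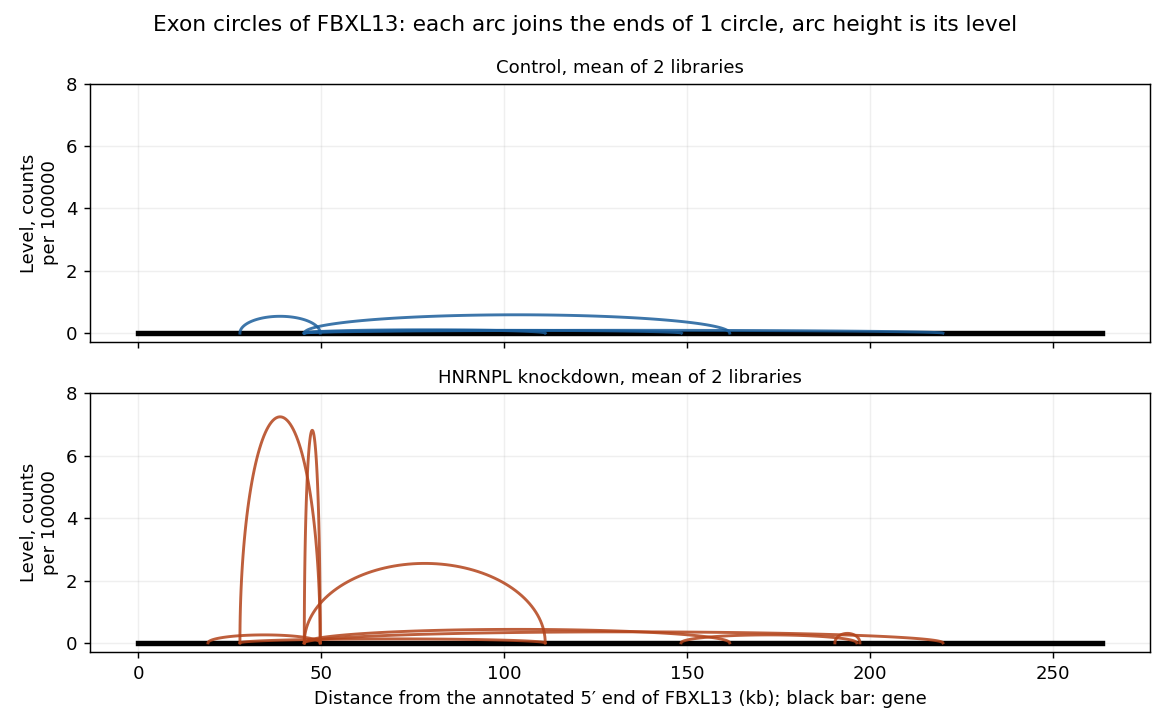
Exon circles of FBXL13 drawn along the gene, with distance from its annotated start in kb on the x axis. Each arc joins the ends of 1 circle and its height is the mean level in counts per 100000 over the 2 libraries of a group. In the knockdown panel 3 arcs that share the 4-exon core rise to 7.25, 6.82 and 2.55 per 100000, while the control panel stays below 1.

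Among the other FBXL genes, FBXL4 and FBXL5 were the most abundant F-box hosts. Together they held 47.1% of all 4021 F-box counts. FBXL4, a mitochondrial F-box protein that limits the removal of mitochondria by autophagy, had levels of 46.1 and 67.4 per 100000 in the controls against 84.9 and 80.4 in the knockdowns. Both knockdowns were above both controls, but the test was not passed (log2 fold change 0.82 ± 0.40 SE; adjusted p = 0.402 in edgeR). The value was 0.46 when control replicate 1 was left out, and 1.40, past the threshold, when control replicate 2 was. FBXL5, which binds iron and directs the degradation of iron regulatory protein IRP2, had 18.2 and 57.3 per 100000 in the controls against 53.1 and 48.6 in the knockdowns. The groups overlapped, because control replicate 1 was low and control replicate 2 was the highest of the 4 libraries. Its log2 fold change was 0.67 ± 0.56 (SE, adjusted p = 0.620 in edgeR). Without control replicate 1 it was -0.012, and without control replicate 2 it was 2.04.

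FBXL17, which takes part in quality control of BTB-domain protein dimers, had 10.4 and 12.4 per 100000 in the controls against 12.7 and 12.5 in the knockdowns, so the groups almost met. Its counts were split nearly evenly between exon-type (101) and intron-type circles (102), unlike those of FBXL4 with 96.6% exon-type. The leading FBXL17 circle is exon-type (chromosome 5, 108348399 to 108367953, 513 nt, 3 exons). It had 14 and 27 counts in the controls against 14 and 21 in the knockdowns. The intron-type part includes a circle of 1132 nt (chromosome 5, 108179875 to 108181006) with 20 counts in control replicate 2 and 0 in the other 3 libraries.

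The circles of FBXL4 were spread over a small number of splice sites. Its 3 most abundant circles join an acceptor at 98934879 or 98927822 on chromosome 6 to a donor at 98899268 or 98875415, and hold 5 to 8 exons. The circle from 98899268 to 98934879 (1625 nt, 6 exons) had 7.20 and 18.3 per 100000 in the controls against 23.7 and 19.97 in the knockdowns. The circle from 98899268 to 98927822 (1507 nt, 5 exons) had 9.10 and 12.8 per 100000 in the controls against 22.3 and 22.0 in the knockdowns. The circle from 98875415 to 98934879 (2010 nt, 8 exons), which uses the donor farther downstream, had 10.8 and 12.04 per 100000 in the controls against 8.49 and 12.03 in the knockdowns. The pair of circles that end at the upstream donor were thus higher in both knockdowns than in both controls, and the longer circle was not. A circle from 98880553 to 98934879 (7 exons), with a donor between these, was also higher in both knockdowns. It had 4.23 and 5.03 per 100000 in the controls against 8.13 and 5.63 in the knockdowns.

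Donor 98899268 took 40.0% and 53.6% of the FBXL4 exon-circle counts in the controls against 64.8% and 59.7% in the knockdowns. Donor 98875415 took 38.05% and 26.9% in the controls against 15.5% in knockdown replicate 1 and 62 of 310 counts in knockdown replicate 2. Acceptor 98934879 took 52.7% and 56.4% in the controls against 50.2% and 50.3% in the knockdowns, and the shares of acceptor 98927822 overlapped between groups, from 34.4% to 39.0%. For FBXL5, donor 15625252 on chromosome 4 took 64.7% and 66.7% in the controls against 59.7% and 56.4% in the knockdowns. These splice ends were chosen after their values were seen, so the shares are a description without a test. At both FBXL4 donors the controls differed from each other by more than control replicate 2 differed from the nearest knockdown. The leading FBXL5 circle (chromosome 4, 15625252 to 15644708, 1766 nt, 8 exons) was the most abundant F-box circle of all, with 26 and 149 counts in the controls against 76 and 87 in the knockdowns.

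**Figure D2:**
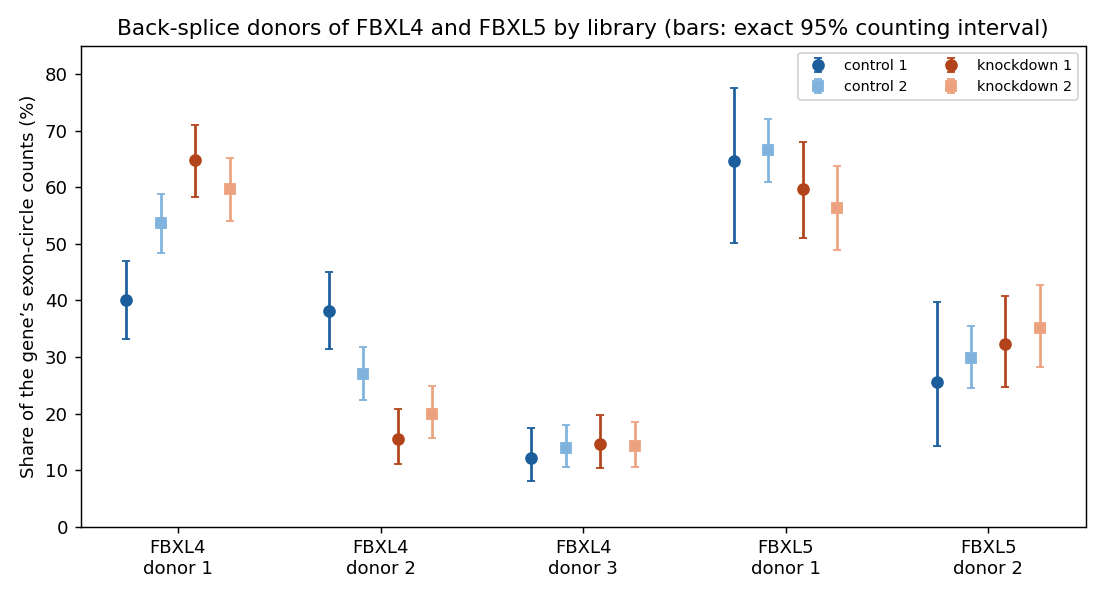
Share of the exon-circle counts of FBXL4 and FBXL5 that end at each leading back-splice donor, in percent, by library, with exact 95% binomial intervals for counting error. FBXL4 donors 1, 2 and 3 are 98899268, 98875415 and 98880553, and FBXL5 donors 1 and 2 are 15625252 and 15612266. The knockdown libraries lie above the controls at FBXL4 donor 1 (64.8% and 59.7% against 40.0% and 53.6%) and below them at donor 2, and the counting intervals of control 2 and knockdown 2 overlap at all 3 FBXL4 donors.

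FBXW11, FBXW4 and FBXW8 had lower values in both knockdowns, and none of these passed the test. FBXW11 encodes a beta-TrCP protein, which recognises phosphorylated substrates such as beta-catenin. It had 26.2 and 20.5 per 100000 in the controls against 13.1 and 12.03 in the knockdowns, with no overlap. The log2 fold change was -0.57 ± 0.33 (SE; adjusted p = 0.466 in edgeR). FBXW4 had 9.95 and 12.6 per 100000 in the controls against 4.24 and 3.07 in the knockdowns, again with no overlap. Its log2 fold change was -1.34 ± 0.46 (SE; adjusted p = 0.278 in edgeR), the smallest among the F-box genes that did not pass. FBXW8, which pairs with the cullin CUL7, had 4.02 and 2.52 per 100000 in the controls against 0.707 and 1.28 in the knockdowns (log2 fold change -1.32 ± 0.81 SE, adjusted p = 0.486 in edgeR).

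A single circle made up most of FBXW4. It spans 101667886 to 101676436 on chromosome 10, has 4 exons and 514 nt, and held 83.7% of the gene's counts. It had 39 and 63 counts in the controls against 5 and 11 in the knockdowns, or 8.26 and 11.3 against 1.77 and 2.82 per 100000. The 2 knockdown libraries lay well below the controls, and the log2 fold change was -2.10 ± 0.45 (SE). The adjusted p was 0.144 in edgeR and 0.0182 in DESeq2, with a range of 5.83e-05 to 0.699 over 13 alternatives in edgeR, DESeq2 or limma. FBXW11 was the opposite case, with 56 rows and no more than 15.5% of its counts in one circle. Its circle of 6 exons (chromosome 5, 171868610 to 171878129, 865 nt) had 13 and 7 counts in the controls against 1 and 0 in the knockdowns, a pooled ratio of 0.0764 (exact 95% counting interval 0.00184 to 0.478). The fit gave that circle a log2 fold change of -3.57 ± 1.37 (SE; adjusted p = 0.343 in edgeR). An intron-type circle of the same gene (chromosome 5, 171992840 to 171994051, 1212 nt) went the other way, with 0 counts in both controls and 5 and 8 in the knockdowns, at least 3.25-fold higher against the floor.

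Of the FBXO genes, FBXO11 was higher in both knockdowns. It directs BCL6 to degradation and had 9.10 and 11.3 per 100000 in the controls against 16.3 and 18.7 in the knockdowns. The log2 fold change was 1.07 ± 0.38 (SE; adjusted p = 0.279 in edgeR). With 78 rows, it had more circles than any other F-box gene. The most abundant (chromosome 2, 47832349 to 47839769, 1166 nt, 10 exons) had 3 and 15 counts in the controls against 9 and 7 in the knockdowns, which overlapped. Another (chromosome 2, 47822218 to 47834871, 985 nt, 8 exons) had 0 counts in both controls and 5 and 7 in the knockdowns, at least 3.03-fold higher against the floor. FBXO25 had 6.56 and 3.05 per 100000 in the controls against 7.07 and 8.45 in the knockdowns (log2 fold change 1.05 ± 0.48 SE, adjusted p = 0.386 in edgeR).

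FBXO38 and FBXO30 had lower values in both knockdowns. FBXO38, which ubiquitinates the receptor PD-1 in T cells, had 12.5 and 17.2 per 100000 in the controls against 6.72 and 9.22 in the knockdowns. Its log2 fold change was -0.60 ± 0.42 (SE, adjusted p = 0.546 in edgeR). It moved to -0.92, past the threshold, with control replicate 1 left out and to -0.052 with control replicate 2 left out. Its leading circle has 13 exons (chromosome 5, 148394714 to 148425701, 1981 nt) and had 18 and 24 counts in the controls against 7 and 10 in the knockdowns. FBXO30 had 6.77 and 8.80 per 100000 in the controls against 3.54 and 4.61 in the knockdowns, with a log2 fold change of -0.63 ± 0.48 (SE, adjusted p = 0.581 in edgeR), and -0.92 or -0.14 with control replicate 1 or 2 left out. Its leading circle is 1 exon of 2050 nt (chromosome 6, 145804372 to 145806421), with 12 and 24 counts in the controls against 6 and 11 in the knockdowns.

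FBXO7, a gene of inherited parkinsonism, had 7.62 and 2.70 per 100000 in the controls against 3.54 and 3.07 in the knockdowns, so the groups overlapped. Its leading circle (chromosome 22, 32478981 to 32493281, 1022 nt, 6 exons) had 19 and 6 counts in the controls against 1 and 5 in the knockdowns. FBXO43, the meiotic inhibitor of the anaphase-promoting complex also called EMI2, had 3.39 and 3.95 per 100000 in the controls against 2.83 and 4.86 in the knockdowns. Its leading circle (1589 nt, 2 exons) had 11 and 16 counts in the controls against 6 and 16 in the knockdowns. For the gene, the spread within the knockdown pair exceeded the difference of the means. FBXO42 had 15 and 4 counts in the controls and 1 count in each knockdown, a pooled ratio of 0.161 (exact 95% counting interval 0.0182 to 0.667). Its log2 fold change of -2.21 ± 1.37 did not pass (SE; adjusted p = 0.491 in edgeR). FBXO16 had 11 counts, all in control replicate 1 and all in 1 intron-type circle that also names ZNF395, and 0 counts elsewhere. That circle (chromosome 8, 28372633 to 28378398) lies outside the RefSeq span of FBXO16, which is 28428412 to 28490229. Control replicate 2 had 0 counts like both knockdowns, so the groups overlapped and a lower level after knockdown is not shown. The fitted log2 fold change of FBXO16 is no bound.

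Of the 38 host genes, 26 had at least 10 counts and were tested. These held 3972 of the 4021 counts. The other 12 had at most 9 counts each, with 30 and 8 counts in all in the controls against 3 and 8 in the knockdowns. Of the 26, FBXL13 passed as higher and 25 did not pass in either direction. Leaving out control replicate 1 gave 7 called F-box genes, beside 20.4% of all host genes tested in that fit, and leaving out control replicate 2 gave 8, beside 33.4%. Leaving out either knockdown library gave 0, as for all host genes. In such fits the lone library of a group is assumed to vary like the other group. Besides FBXL13, the genes that passed included FBXO11 in both fits, FBXO25, FBXO38 and FBXW4 without control replicate 1, and FBXL4, FBXL5, FBXL17, FBXO16 and FBXO42 without control replicate 2. At an unadjusted p under 0.05, 2 were higher and 1 was lower, beside 7.58% and 6.19% of all tested host genes. Of the 26, 7 were higher and 7 lower with no overlap between groups, beside 15.3% higher and 36.7% lower of all tested host genes. The median log2 fold change of the 26 was 0.0044 (0.44 without control replicate 1), with 13 above and 13 below 0. Over all tested host genes the median was -0.26, and 59.6% were below 0. With library-size scaling in place of TMM both medians shifted down, to -0.31 for the F-box genes and -0.58 for all. Another 10 tested genes had log2 fold changes between -1.14 and 1.73 and adjusted p between 0.632 and 0.964 in edgeR.

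**Figure D3:**
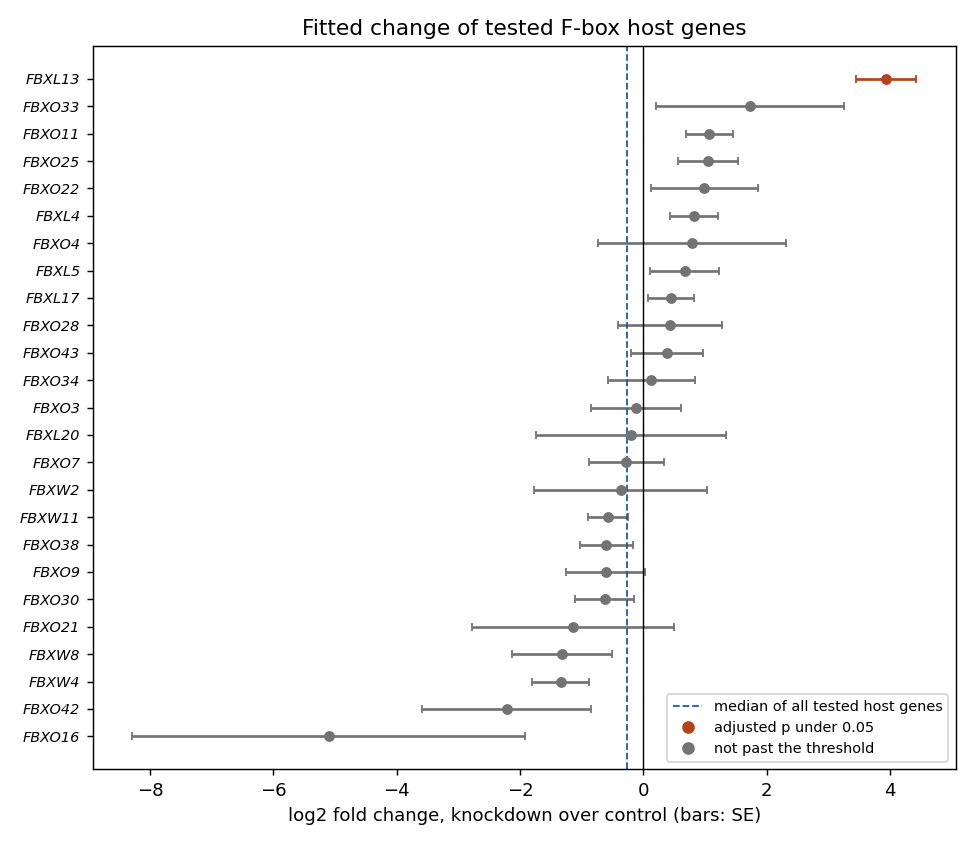
Fitted log2 fold change (knockdown over control) with its standard error for tested F-box host genes, with the median of all 8379 tested host genes as a dashed line at -0.26. FBXL13 at 3.94 is the one past an adjusted p of 0.05. The value of FBXO16, with 0 counts in 3 libraries, is no bound.

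As single circles, 61 F-box rows from 19 genes had at least 10 counts, and the other 402 with counts had 1 to 9. In edgeR's quasi-likelihood test 0 of the 61 passed an adjusted p of 0.05, as did 0% of all 21576 circles tested. DESeq2 called 3 of the 61, beside 4.88% of all circles, and limma voom with group weights called 1, beside 1.37%. Without control replicate 1 edgeR called 16, beside 22.6% of all circles, without control replicate 2 it called 21, beside 29.9%, and without either knockdown library 0. At an unadjusted p under 0.05 in edgeR, 7 were higher and 3 lower, beside 9.29% higher and 4.26% lower of all circles. The higher ones included the 3 leading FBXL13 circles, the intron-type FBXW11 circle, the 8-exon FBXO11 circle and the FBXL4 circle from 98899268 to 98927822. The 3 lower were the leading FBXW4 circle, the 6-exon FBXW11 circle and an intron-type FBXL5 circle (chromosome 4, 15619986 to 15644708, 1842 nt) with 2 and 17 counts in the controls and 0 in the knockdowns. Of the 61, 18 were higher and 13 lower with no overlap between groups, beside 23.2% and 22.9% of all circles. Fitted values were below 0 for 31 of the 61, beside 60.3% of all circles.

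**Figure D4:**
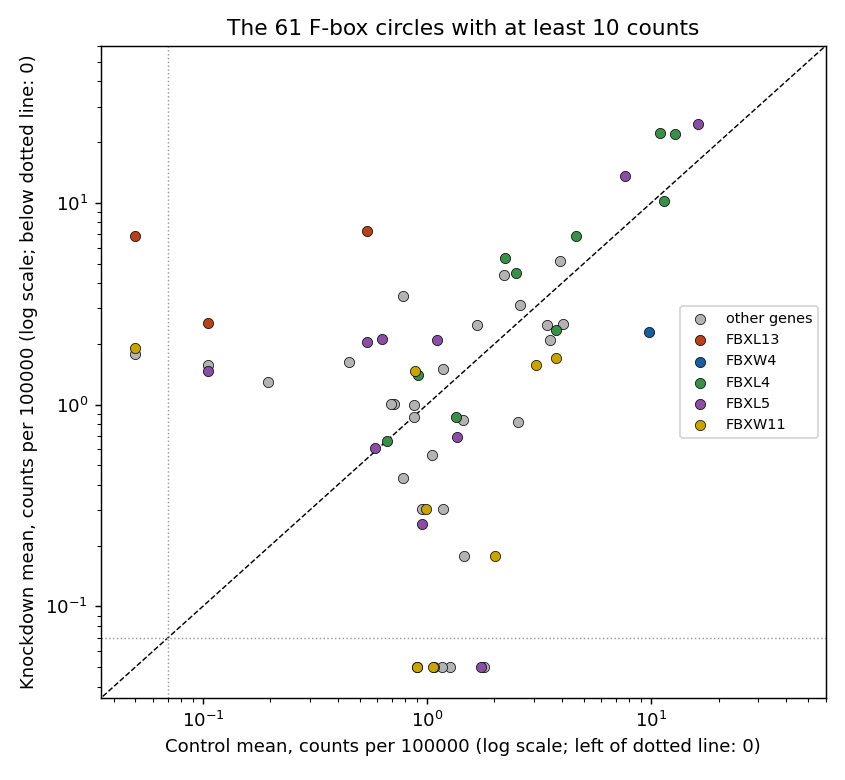
Mean level of each of the 61 F-box circles with at least 10 counts in the controls (x axis) and knockdowns (y axis), in counts per 100000 on log axes, with the dashed line at equality. The 3 FBXL13 circles lie above the line, with means of 7.25, 6.82 and 2.55 in knockdowns, and the FBXW4 circle lies below it at 9.79 against 2.29.

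Whether the circles of 1 host gene differed in their response was tested for 13 F-box genes with at least 2 testable circles. In edgeR's F test per gene 0 of 13 passed an adjusted p of 0.05, beside 3.94% of all 2335 genes tested, and 0 of 13 had an unadjusted p under 0.05, beside 17.9%. Simes' method also gave 0. Leaving out control replicate 1 gave 6, beside 43.9% of all genes in that fit, and leaving out control replicate 2 gave 5, beside 46.5%. FBXW11, with 8 circles, had the smallest adjusted p at 0.289, and FBXL4 and FBXL5, with 10 circles each, had 0.564 and 0.521. For FBXL13, whose 3 testable circles are those with the shared core, the adjusted p was 0.424.

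The F-box circles were mostly multi-exon. Of the 463 circles with counts, 290 were exon-type with a median length of 1174 nt and a median of 5 exons, and 173 were intron-type with a median length of 1531 nt. Exon-type circles of all genes had a median length of 1248 nt. The table gave the motif AG-GT with no offset and no asterisk for 58.3% of the exon-type circles and for 0 of the intron-type circles. With an asterisk, whose meaning was not given in the sources used here, the same motif and offset stood in 20 exon-type and 34 intron-type circles. The largest circle by exon number had 22 exons, and 54 exon-type circles had 1. The FBXL genes held 58.0% of the counts, the FBXO genes 28.3% and the FBXW genes 13.7%.

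F-box circles took 0.208% and 0.240% of all counts in the controls against 0.254% and 0.251% in the knockdowns. Both knockdowns were above both controls, with means of 0.224% ± 0.0225 and 0.253% ± 0.00202 (SD, n = 2). The exact two-sided permutation test gave p = 0.333, the smallest that 2 against 2 allows. Intron-type circles made up 24.9% and 12.7% of F-box counts in the controls against 10.0% and 9.16% in the knockdowns (exact permutation test, p = 0.333). The high value was that of control replicate 1, as for all genes. The count-weighted median length of F-box circles was 1507 and 1625 nt in the controls and 1589 and 1579 nt in the knockdowns, which lie between the controls (exact permutation test, p = 1).

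The partners and regulators of the F-box proteins were read from the same fit. Of 37 genes of the SCF core and its regulators, 24 could be tested, and 0 passed in edgeR, against 1 in DESeq2 (2.21% of all host genes) and 2 in limma voom (4.81%). Without control replicate 1 edgeR called 8 of 23 and without control replicate 2 it called 11 of 24, beside 20.4% and 33.4% of all host genes. At an unadjusted p under 0.05, 3 were higher and 3 lower, beside 7.58% and 6.19% of all host genes. SKP1, the adaptor that all F-box proteins bind, had 14.6 and 18.9 per 100000 in the controls against 51.3 and 40.2 in the knockdowns. Its log2 fold change was 1.73 ± 0.37 (SE, adjusted p = 0.109 in edgeR). GLMN, an inhibitor that binds RBX1, had 2.75 and 3.23 per 100000 in the controls against 9.20 and 9.73 in the knockdowns (log2 fold change 1.95 ± 0.45 SE, adjusted p = 0.138 in edgeR). BTRC is itself an F-box protein, the paralog of FBXW11, but its symbol falls outside the rule. It had 7.62 and 7.01 per 100000 in the controls against 0.354 and 1.02 in the knockdowns, with a log2 fold change of -2.97 ± 0.69 (SE; adjusted p = 0.138 in edgeR). CUL1, the scaffold, had 66 and 70 counts in the controls against 36 and 51 in the knockdowns (log2 fold change 0.27 ± 0.35 SE).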

How the data were processed

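The deposited table of raw counts was used. Per the file headers it gives whole-number counts per back-splice position called by CIRI-long. The submitters' processing notes name GRCh38.p14 and DESeq2. The version, base caller, aligner and filters were not given in the sources used here. A second deposited table holds the same values per 100000 and was not used. All 38 symbols matched the RefSeq gene table of GRCh38.p14, and 515 of 541 circles lay within 1000 nt of their gene's span there. No genome sequence was used, so no junction sequence is printed. Some genes are not reported here.

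Library totals were 282737 to 556578 counts. Host genes were summed over non-antisense circles that name them, alone or with others. Exon numbers and exon content are those of the first isoform listed for a circle. The test was edgeR 4.0.16's quasi-likelihood test (glmQLFit defaults, R 4.3.3) with TMM, on features with at least 10 counts over the 4 libraries. Benjamini-Hochberg adjustment ran over all features tested, with a threshold of 0.05. Standard errors were derived from the F statistic. Circle use within genes was tested with diffSpliceDGE on circles that name 1 gene. DESeq2 1.42.0 and limma 3.58.1 were alternatives, and single values per library were compared with exact permutation tests (scipy 1.17.1). Named were host genes past the threshold, the 12 with most counts, the 5 with the smallest p-value per direction, and FBXL13. Named circles were the 10 with most counts, the 5 with the smallest p-value per direction, the leading circle of each named gene, and 3 of FBXL13. Some of these named circles are not described above. Other circles described were chosen after their values were seen. The members and lists were chosen with earlier results of these data known. The default dispersion method was kept over the newer one with the results of both known. The edgeR tests of host genes, circles and circle use were also run on simulated data that used the spread fitted here. Changes in host genes and circles were placed only in features with at least 40 counts. Of the tested F-box members, 19 of 26 genes and 20 of 61 circles had that many. At that spread, 9.5% of simulated 4-fold changes in host genes and 0% of those in circles were recovered. For 16-fold changes these values were 85.5% and 33.5%.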

Additional observations from a re-analysis of the deposited data

How the results depend on the processing

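The F-box host gene count was 1 (FBXL13) in every setting that kept all 4 libraries except the newer dispersion method, which gave 0 (log2 fold change 3.94, adjusted p = 0.0874 in edgeR). FBXL13 kept its direction in all 14 alternatives. When 1 library was left out, the count ranged from 0 to 8, and FBXL13 lost its call without either knockdown library. F-box circles past the threshold numbered 0 in edgeR, beside 0% of all circles. They were 3 of 61 in DESeq2 (4.88% of all circles) and 1 of 61 with voom and group weights (1.37%). Unfiltered they were 2 of 463, beside 402 higher and 69 lower of all 190152 circles. At a minimum of 40 counts they were 3 of 20, beside 501 and 61 of 4944. With at least 5 counts in each of 2 libraries they were 6 of 38, beside 1213 and 209 of 11711. With a replicate block they were 5 of 61, beside 1221 and 399 of 21576. With exon-type circles only, a setting added after seeing the data, they were 1 of 53, beside 297 and 5 of 17790. They ranged from 0 to 21 with 1 library left out. Stricter filters test fewer circles, and beyond that the cause was not tested. The median log2 fold change of the F-box host genes was -0.31 with library-size scaling, -0.34 with no filter, 0.42 with voom and group weights and 0.40 with a replicate block, and ranged from -0.091 to 0.44 with 1 library left out. With FBXO16 set to 1.27-fold lower, its control mean over the knockdown floor, the main median remained 0.0044. Of the SCF genes, 3 of 29 passed when unfiltered, beside 265 higher and 104 lower of all 14794 host genes. With a replicate block 3 of 24 passed, beside 259 and 41 of 8379. A minimum of 40 counts gave 1 of 17, beside 103 and 5 of 4764. At least 5 counts in each of 2 libraries gave 1 of 22, beside 111 and 5 of 6615. Circle use gave 3 of 13 F-box genes with a replicate block, beside 536 of all 2335 genes.

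The difference in F-box share ranged from 0.0128 to 0.0446 percentage points with 1 library left out, and that in intron-type share from -15.3 to -3.14. The difference in median length ranged from -41 to 77 nt, and within replicate number 2 (replicate block) it was -46 nt. Signs also turned with 1 library left out for FBXL5 (-0.012 to 2.04), FBXO43 (-0.11 to 0.79), FBXO7 (-0.65 to 0.44), an FBXO43 circle (-0.34 to 0.79) and the FBXL4 circle from 98875415 to 98934879 (-0.49 to 0.20). Of 210 alternative values of the named host genes, 193 kept their direction and side of the threshold. For the named circles this was 265 of 314. DESeq2 gave no adjusted p for 11 named features. Depth limits single circles: 402 of 463 had fewer than 10 counts and were not tested. The same-numbered libraries' deviations had a correlation of 0.0706 and no label ties a number to a shared culture, so the numbers were taken as names.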
